A study of Mus musculus with 9 samples.

Results

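The Ctsd to Igf2 locus is a run of neighboring genes on distal mouse chromosome 7 that holds a pair of fast skeletal troponin genes, *Tnni2* and *Tnnt3*, and the imprinted genes *H19* and *Igf2*. Its 8 members were taken as the named neighbors with a value in the deposited table, out of 14011 genes in all. In order along the chromosome they are *6330512M04Rik* (now *Ifitm10*), *Ctsd*, *Tnni2*, *Lsp1*, *Tnnt3*, *Mrpl23*, *H19* and *Igf2*. The locus was chosen by the values of *Tnni2* and *Tnnt3* in homozygotes and controls, which gave it its name, with results of these hearts known. For those genes the differences between genotypes are therefore given as descriptions with no test. The other 6 were named with it as neighbors, also with results known, while *Gm14492* and *Igf2as*, which lie in the same stretch and have a value, were not. Adjusted p-values of the 6 come from the fit across all genes and are no independent evidence about the locus.

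RNA was sequenced from embryonic mouse hearts at E10.5, in 3 libraries per genotype, each from a pool of 6 hearts. All embryos came from crosses of *Ctcf* fl/+; *Nkx2.5-Cre* with *Ctcf* fl/fl animals of mixed strain and received no treatment. Homozygotes were *Ctcf* fl/fl; *Nkx2.5-Cre*/+, in which both alleles of *Ctcf* are open to deletion. Heterozygotes were *Ctcf* fl/+; *Nkx2.5-Cre*/+, in which 1 allele is. Controls carried no driver, and the labels give them as *Ctcf* fl/fl where the study's methods give *Ctcf* fl/+. The driver acts in cardiac progenitors and their descendants, so other cells of the heart kept their floxed alleles and entered the same RNA. A difference from controls includes the effect of the driver itself. In RNA from whole hearts, fewer cells of a type and less RNA per cell cannot be told apart.

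CTCF is a zinc finger protein that binds DNA, insulates promoters from enhancers and anchors chromatin loops. At the *H19* and *Igf2* pair it binds the imprinting control region on the maternal chromosome, which keeps the enhancers beyond *H19* from *Igf2*, so that *H19* RNA is made from the maternal and *Igf2* from the paternal copy. *Tnni2* and *Tnnt3* encode the inhibitory and the tropomyosin-binding subunit of the troponin complex of fast skeletal fibers, whereas the working heart muscle uses other members of both families.

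A strict form of the core of the CTCF motif, CCGCGNGGNGGCAG, was searched on both strands of the genome build of the files, NCBIM37. It had 58 matches in 21 chromosomes and was present in 0.0219% of 255853 windows of 10 kb. The stretch from *6330512M04Rik* to *Igf2* held 3 of them, all on the minus strand, between *H19* and *Igf2* and inside no annotated gene. CTCF binds variable sequences, and this string, a form known from the repeats of the *H19* control region, leaves out most of its sites, so the matches follow in large part from the choice of string. They are printed because they lay 2.17, 2.62 and 3.89 kb above the start site of *H19*, where the imprinting control region is known to be. A match is a string of letters, and binding was not measured in the data used here. The capitals mark the 14 letters of the motif, with 5 bases to each side, read along the minus strand.
chr7:149766209-149766232: cgatgCCGCGTGGTGGCAGtacaa
chr7:149766664-149766687: tgctaCCGCGCGGTGGCAGcatac
chr7:149767934-149767957: agttgCCGCGTGGTGGCAGcaaaa

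The 8 genes together spanned 341 kb (chr7:149511742-149852721, NCBIM37, GENCODE M1). *Ctsd* started 53.8 kb before the start site of *Tnni2*, and *6330512M04Rik* 68.1 kb before it. *Lsp1* started 19 kb after it, *Tnnt3* 57.0 kb, *Mrpl23* 91.0 kb, *H19* 136 kb and *Igf2* 225 kb. *Tnni2*, *Lsp1*, *Tnnt3* and *Mrpl23* are on the plus strand and the other 4 on the minus strand. Of 15 annotated genes that start in the stretch, 10 had a row in the table. Those outside the 8 were *Gm14492* and *Igf2as*, and the 5 without a row were *Syt8*, *Nctc1*, *Mir675*, *Mir483* and a U6 small nuclear RNA.

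**Figure D1:**
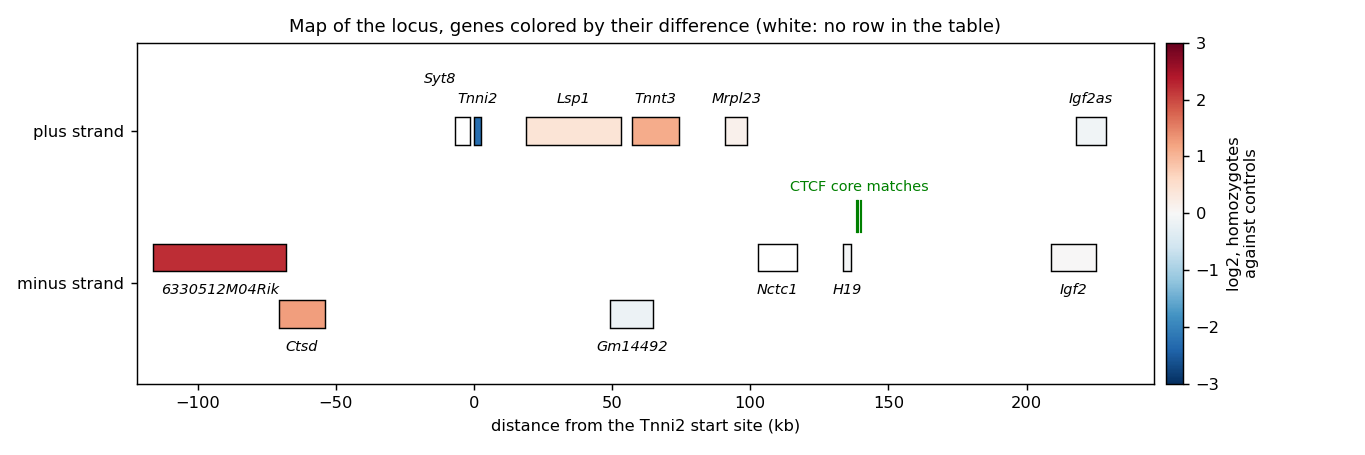
Map of the locus, with the distance from the *Tnni2* start site in kb on the horizontal axis and the strands on the vertical axis. Boxes are genes, colored by the log2 difference of homozygotes from controls (white, no row in the table), and the green lines are the 3 matches to the strict CTCF string. *6330512M04Rik* (2.21), *Ctsd* (1.24) and *Tnnt3* (1.12) are in shades of red, *Tnni2* (-2.28) is blue and *H19* (-0.06) and *Igf2* (0.01) are nearly white. The small RNA genes are not drawn.

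The targeted gene served as the check of the labels. *Ctcf* had a normalized value of 121 ± 0.837 in controls, 97.3 ± 3.26 in heterozygotes and 81.4 ± 2.85 in homozygotes (SD, n = 3), with no overlap between any of the groups. It was lower in homozygotes by a log2 difference of -0.57 (SE 0.06, limma adjusted p = 2.91e-05) and in heterozygotes by -0.32 (SE 0.06, limma adjusted p = 0.0467). Total reads ran from 4294537 to 11629365 per library, and 1 read was worth between 0.0901 and 0.231 in these values. Replicates of a group differed by more than counting error, with a chi-square of 3.22 to 7.15 per degree of freedom over 9 pairs.

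Markers of heart muscle summed to 18893 to 21464 in controls, 21731 to 24718 in heterozygotes and 18167 to 21219 in homozygotes over 11 genes, so that heterozygotes lay above both other genotypes. Of the 11, 3 (*Nkx2-5*, *Ryr2* and *Nppa*) were lower in homozygotes than in controls and 5 (these with *Myh6* and *Myh7*) lower than in heterozygotes, and none was higher. All 6 erythroid markers were higher in homozygotes (median log2 difference 0.77), with sums of 56684 to 74974 against 31721 to 46208 in controls and 25512 to 43162 in heterozygotes. Over all genes, 7.19% were called higher and 8.03% lower in homozygotes than in controls, and 6.87% and 6.7% than in heterozygotes. One control library, number 1, stood apart for liver and endoderm markers, with a sum of 1113 over 13 genes against 82.8 and 94.8 in the other controls. The sums were also lower in all heterozygotes, at 21.1 to 33.3, than in any control, and ran from 22.9 to 99.6 in homozygotes. Of the 13 genes, 11 had an unadjusted p under 0.05 between heterozygotes and controls, beside 7.37% of all genes, with a median log2 difference of -2.11 and none called by limma. The endothelial (8 genes), mesenchymal (8) and leukocyte (13) lists had 1, 0 and 0 genes higher and 2, 1 and 1 lower in homozygotes than in controls. Of 7 markers of skeletal myoblasts only *Chrna1* had a row, at a value of 0.661 to 1.80 in the 9 libraries, and *Myod1*, *Myf5*, *Myf6*, *Myog*, *Pax3* and *Pax7* had none. The part of these cell types in the results below was not tested. Without control library 1, *6330512M04Rik* (log2 difference 2.25), *Ctsd* (1.23) and *Lsp1* (0.36) were still called higher in homozygotes than in controls, and the differences of *Tnni2* and *Tnnt3* were -2.33 and 1.14.

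In homozygotes, *6330512M04Rik*, *Ctsd* and *Lsp1* rose against controls, *Tnnt3* was higher, *Tnni2* was lower, and *Mrpl23*, *H19* and *Igf2* did not pass the test. Within the stretch, *Tnni2* lies between *Ctsd* and *Lsp1*, which both rose. Leaving out *Tnni2* and *Tnnt3*, 8 genes of the stretch had a row, *Gm14492* and *Igf2as* included, and 3 of them were called higher and none lower at an adjusted p under 0.05, beside 15.2% of all genes (7.19% higher and 8.03% lower). Libraries of homozygotes and controls did not overlap for the same 3 genes, beside 33.2% of all genes. Nothing is read from these counts, because the locus was chosen with this contrast known.

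**Figure D2:**
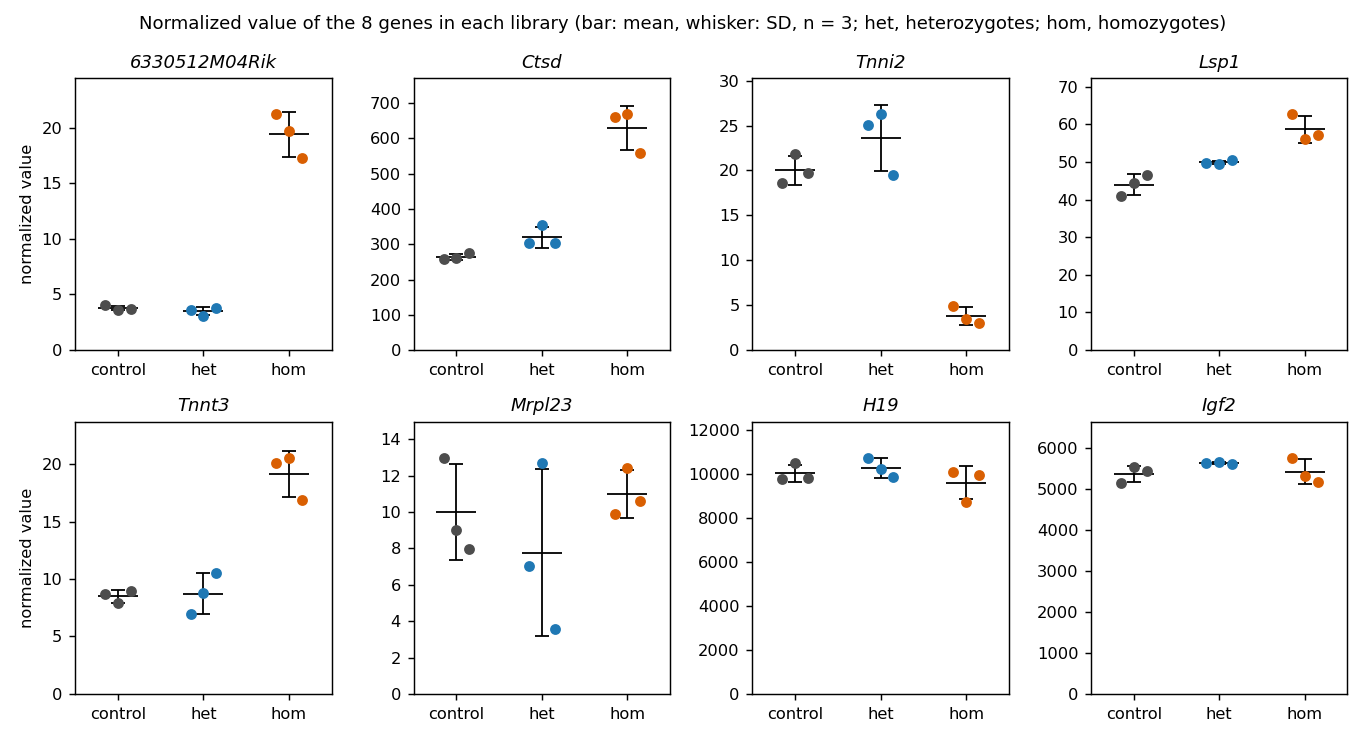
Normalized value (vertical axis, from 0) of each of the 8 genes in the 9 libraries, in panels ordered along the chromosome. Points are libraries of controls, heterozygotes (het) and homozygotes (hom), bars are means and whiskers SD (n = 3). The homozygotes of *Tnni2* lie between 3.02 and 4.88, under every other library, and those of *6330512M04Rik*, *Ctsd*, *Lsp1* and *Tnnt3* lie above every other library.

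*Tnni2* (ENSMUSG00000031097, chr7:149627713-149630315) encodes fast skeletal troponin I. Its normalized value was 18.6, 21.8 and 19.7 in the controls, 25.1, 26.3 and 19.5 in the heterozygotes and 4.88, 3.47 and 3.02 in the homozygotes. Every homozygote lay below every other library, while heterozygotes and controls overlapped. The mean of homozygotes was 18.9% of that of controls, a 5.28-fold lower value and a log2 difference of -2.28 (SE 0.17). Against heterozygotes the value was 6.23-fold lower, with a log2 difference of -2.50 (SE 0.17). These values rested on 20 to 33 reads in each homozygote and 134 to 214 in each control. By its log2 difference from controls *Tnni2* was the 10th lowest of the 14011 genes. The difference stayed between -2.50 and -2.15 over 20 alternative analyses.

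*Tnnt3* (ENSMUSG00000061723, chr7:149684741-149701914) encodes fast skeletal troponin T and starts 57.0 kb beyond *Tnni2*. Its value was 8.67, 7.88 and 8.99 in the controls, 6.91, 8.77 and 10.5 in the heterozygotes and 20.1, 20.6 and 16.9 in the homozygotes. All homozygotes lay above all other libraries, so the pair of troponin genes moved apart. The homozygote mean was 2.25-fold that of controls, with a log2 difference of 1.12 (SE 0.15), and 2.20-fold that of heterozygotes, with a log2 difference of 1.11 (SE 0.15). The gene overlaps *Gm14492* on the opposite strand over 7936 bases, of which 0 were exonic in both. Whether reads were counted by strand is not given in the sources used here, so intronic reads of either gene cannot be assigned, and *Gm14492* itself was at a mean of 1.81 in controls and 1.52 in homozygotes.

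The ratio of the pair was computed within each library, where the scaling of the library cancels. *Tnnt3* over *Tnni2* was 0.467, 0.361 and 0.457 in the controls and 0.276, 0.333 and 0.538 in the heterozygotes. It was 4.12, 5.93 and 5.60 in the homozygotes. Without correction for exon length, the ratio was thus below 1 in all 6 libraries of controls and heterozygotes and above 1 in all 3 of homozygotes.

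The list of other troponin genes, which include those of the working heart, had 1 gene called higher and 1 lower in homozygotes than in controls, beside 7.19% and 8.03% of all genes. Of 6 listed, subunits I, T and C included, *Tnnc2* had no row and 5 were measured. *Tnni3*, the adult cardiac troponin I, rose by a log2 difference of 0.33 (SE 0.06, limma adjusted p = 0.00313), and *Tnnt1*, the slow skeletal troponin T, fell by 0.53 on the log2 scale (SE 0.10, limma adjusted p = 0.00269). *Tnni1*, *Tnnt2* and *Tnnc1*, the fetal troponin I and the cardiac troponins T and C, had log2 differences of 0.07, 0.13 and 0.14 and were not called. The median over the 5 genes was 0.13. Against heterozygotes *Tnni3* was at 0.16 and not called (limma adjusted p = 0.103), *Tnnt1* was lower by -0.43 (limma adjusted p = 0.0110), and the median of the 5 was -0.07.

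The list of fast skeletal muscle genes had 2 genes called higher and 1 lower in homozygotes than in controls. Of 27 listed, 17 had no row, among them the fast myosin heavy chains *Myh1*, *Myh2* and *Myh4*, and 10 were measured. *Mylpf*, the fast skeletal regulatory light chain, rose by 0.87 (SE 0.11, limma adjusted p = 0.000207), *Eno3*, the muscle enolase, rose by 0.35 (SE 0.06, limma adjusted p = 0.00118) and *Mybpc1*, the slow skeletal myosin-binding protein C, fell by 0.61 (SE 0.17, limma adjusted p = 0.0239) on the log2 scale. The other 7 were not called, so that 3 of 10 were called, beside 15.2% of all genes, and the median of the 10 was 0.08. Against heterozygotes 1 was higher, *Mylpf*, and *Casq1* and *Acta1* were lower, beside 6.87% and 6.7% of all genes.

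*Ctsd* (ENSMUSG00000007891, chr7:149557053-149573943) encodes cathepsin D, an aspartic protease of the lysosome. Its value was 258, 262 and 274 in the controls, 303, 354 and 304 in the heterozygotes and 660, 670 and 559 in the homozygotes. The 3 genotypes did not overlap, with controls lowest and homozygotes highest. It rose 2.38-fold against controls (log2 difference 1.24, SE 0.08, limma adjusted p = 7.08e-07) and 1.97-fold against heterozygotes (0.97, SE 0.08, limma adjusted p = 1.08e-05). The difference of heterozygotes from controls, 0.27 (SE 0.08), did not pass the test (limma adjusted p = 0.370, unadjusted p = 0.00420). *Ctsd* was the 80th highest of the 14011 genes by its log2 difference of homozygotes from controls.

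RefSeq promoters (GRCm38.p6, 250 bases before to 50 after a start site) were at hand for *Ctsd*, *6330512M04Rik*, *Mrpl23* and *Igf2*, 4 of the 8 genes. That of *Ctsd* is printed as the promoter of the gene with the smallest adjusted p against controls among the tested members. It spans chr7:142387828-142388077 of that build on the minus strand and ends at the base before the start site, with E-boxes (CACGTG, which reads the same on both strands) in capitals.
Ctsd promoter: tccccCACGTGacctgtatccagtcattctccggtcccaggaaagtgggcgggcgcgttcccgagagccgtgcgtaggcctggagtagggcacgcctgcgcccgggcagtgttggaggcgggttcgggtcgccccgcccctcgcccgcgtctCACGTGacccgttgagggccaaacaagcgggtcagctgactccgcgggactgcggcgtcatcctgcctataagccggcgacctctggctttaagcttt
The E-boxes began 245 and 98 bases before the start site. An E-box was in 7.15% of 32851 RefSeq promoters and in none of the other members' promoters searched.

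Of 13 other cathepsins listed, 11 had a row, and 2 were higher in homozygotes than in controls, *Ctsb* (0.40, SE 0.08, limma adjusted p = 0.00586) and *Ctso* (0.43, SE 0.12, limma adjusted p = 0.0320), both cysteine proteases. None was lower, and their median was 0.01. A count of 2 in 11 is close to the 15.2% called over all genes. *Ctsl*, another cysteine protease of the lysosome, had means of 202, 203 and 203 in controls, heterozygotes and homozygotes. Against heterozygotes *Ctsb* and *Ctse* were higher and *Ctsa* was lower, beside 6.87% and 6.7% of all genes.

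*6330512M04Rik* (ENSMUSG00000045777, chr7:149511742-149559658), now *Ifitm10*, is a distant member of the interferon-induced transmembrane family. It starts inside the last part of *Ctsd*, on the same strand. Its value was 4.02, 3.61 and 3.73 in the controls, 3.58, 3.09 and 3.81 in the heterozygotes and 21.2, 19.7 and 17.2 in the homozygotes. Every homozygote lay above every other library and the other genotypes overlapped. It rose 5.13-fold against controls (log2 difference 2.21, SE 0.16, limma adjusted p = 2.24e-06), from 25 to 35 reads in each control to 93 to 191 in each homozygote. Against heterozygotes it rose 5.55-fold (2.32, SE 0.16, limma adjusted p = 1.96e-06). It was the 16th highest of all genes by its difference from controls. Heterozygotes differed from controls by -0.10 (SE 0.16, limma adjusted p = 0.943).

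The exons of *6330512M04Rik* and *Ctsd* share 163 bases, 3.40% of the exonic length of *6330512M04Rik* and 6.47% of that of *Ctsd*. At the level of *Ctsd* per base, those 163 bases would hold a value of 17.1 in controls and 40.7 in homozygotes. The whole of *6330512M04Rik* had means of 3.78 and 19.4, less than that in both genotypes. How reads in the shared bases were divided was not tested. Of the exonic bases of *6330512M04Rik*, 3.17% also match elsewhere in the genome, with 109 matches at an identity of at least 95%. *Ctsd* over *6330512M04Rik* was 64.3, 72.6 and 73.6 in the controls, 84.6, 115 and 79.8 in the heterozygotes and 31.1, 34.0 and 32.4 in the homozygotes, so *6330512M04Rik* gained more than *Ctsd* did. Of 6 relatives listed, *Ifitm1*, *Ifitm2* and *Ifitm3* had a row and none was called in any comparison. Of all genes, 15.2% were called in homozygotes against controls, 13.6% in homozygotes against heterozygotes and 0.143% in heterozygotes against controls.

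*Lsp1* (ENSMUSG00000018819, chr7:149646714-149680772), which starts 19 kb beyond *Tnni2*, encodes lymphocyte-specific protein 1, an actin-binding protein of leukocytes and endothelium. Its value was 41.0, 44.4 and 46.6 in the controls, 49.8, 49.5 and 50.4 in the heterozygotes and 62.8, 56.1 and 57.2 in the homozygotes. The genotypes followed each other without overlap, with controls lowest. It rose 1.33-fold against controls (log2 difference 0.41, SE 0.07, limma adjusted p = 0.00240). Against heterozygotes the difference of 0.23 (SE 0.07) missed the threshold (limma adjusted p = 0.0504) and passed it under 3 alternatives. Heterozygotes differed from controls by 0.18 (SE 0.07, limma adjusted p = 0.612, unadjusted p = 0.0255). Leukocyte markers were summed to between 68.8 and 81.1 in controls, 49.6 and 57.1 in heterozygotes and 46.0 and 81.4 in homozygotes over 13 genes, and the panleukocyte gene *Ptprc* was at a mean of 3.41, 1.72 and 2.57. *Lsp1* also overlaps *Gm14492* on the opposite strand, with 0 exonic bases in common.

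*Mrpl23* (ENSMUSG00000037772, chr7:149718704-149726652) encodes a protein of the large subunit of the mitochondrial ribosome. Its value was 13.0, 9.0 and 7.97 in the controls, 7.01, 12.7 and 3.58 in the heterozygotes and 9.88, 12.4 and 10.6 in the homozygotes. The 3 genotypes overlapped, and the heterozygotes were the most scattered. The log2 difference of homozygotes was 0.15 from controls (SE 0.32, limma adjusted p = 0.796) and 0.63 from heterozygotes (SE 0.32, limma adjusted p = 0.221). The 95% confidence interval of the first ran from 0.692-fold to 1.79-fold. The second depended on single libraries, at 1.04 without heterozygote library 2 (limma adjusted p = 0.0257) and at 0.20 without heterozygote library 3 (limma adjusted p = 0.675). Part of this gene also matches elsewhere in the genome, with 30.8% of its exonic bases in 3 matches at an identity of at least 95%, so its level is uncertain.

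Of 46 other genes for the large mitochondrial ribosomal subunit, all with a row, 12 were higher in homozygotes than in controls and none lower, where 7.19% of all genes were higher and 8.03% lower. Their median log2 difference was 0.17. The highest of the 12 was *Mrpl33*, at 0.48 (SE 0.09, limma adjusted p = 0.00387). Against heterozygotes 7 were higher (6.87% of all genes were) and none lower, with a median of 0.13. *Mrpl23* had a standard error larger than its difference from controls, and whether it differed from the others was not tested.

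*H19* (ENSMUSG00000000031, chr7:149761434-149764048) is a long noncoding RNA and was among the most abundant of the table, with 0.840% to 1.11% of the reads of each library. Its value was 9763, 10464 and 9805 in the controls, 10726, 10236 and 9844 in the heterozygotes and 10093, 8725 and 9963 in the homozygotes. All groups overlapped. The log2 difference of homozygotes from controls was -0.06 (SE 0.10, limma adjusted p = 0.728) and the 95% confidence interval of the fold ran from 0.821 to 1.11. The difference from heterozygotes was -0.10 (SE 0.10, limma adjusted p = 0.569). By value *H19* ranked 3 or 4 in each control and heterozygote and 5 or 6 in each homozygote. Under quantile normalization, which sets a value by its rank, it was lower in homozygotes by -0.39 (limma adjusted p = 0.0176).

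*Igf2* (ENSMUSG00000048583, chr7:149836673-149852721) encodes insulin-like growth factor 2, a growth factor of the embryo. Its value was 5142, 5528 and 5436 in the controls, 5629, 5657 and 5617 in the heterozygotes and 5764, 5329 and 5176 in the homozygotes. Homozygotes overlapped with both other genotypes, and the heterozygotes lay close together (SD 20.7, against 202 in controls and 305 in homozygotes) and above all controls. The log2 difference of homozygotes from controls was 0.01 (SE 0.08, limma adjusted p = 0.937), with a 95% confidence interval of 0.892-fold to 1.14-fold. From heterozygotes it was -0.06 (SE 0.08, limma adjusted p = 0.710). *Igf2* shares 98 exonic bases with *Igf2as* on the opposite strand, which was at a mean of 90.3 in controls and 83.8 in homozygotes (log2 difference -0.11, limma adjusted p = 0.423).

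*H19* over *Igf2* was 1.90, 1.89 and 1.80 in the controls, 1.91, 1.81 and 1.75 in the heterozygotes and 1.75, 1.64 and 1.93 in the homozygotes, with overlap between all groups. The means were 1.87 ± 0.0533 in controls and 1.77 ± 0.145 in homozygotes (SD, n = 3). These values add up the maternal and paternal copies, which cannot be told apart in gene totals, and cells with and without the driver.

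**Figure D3:**
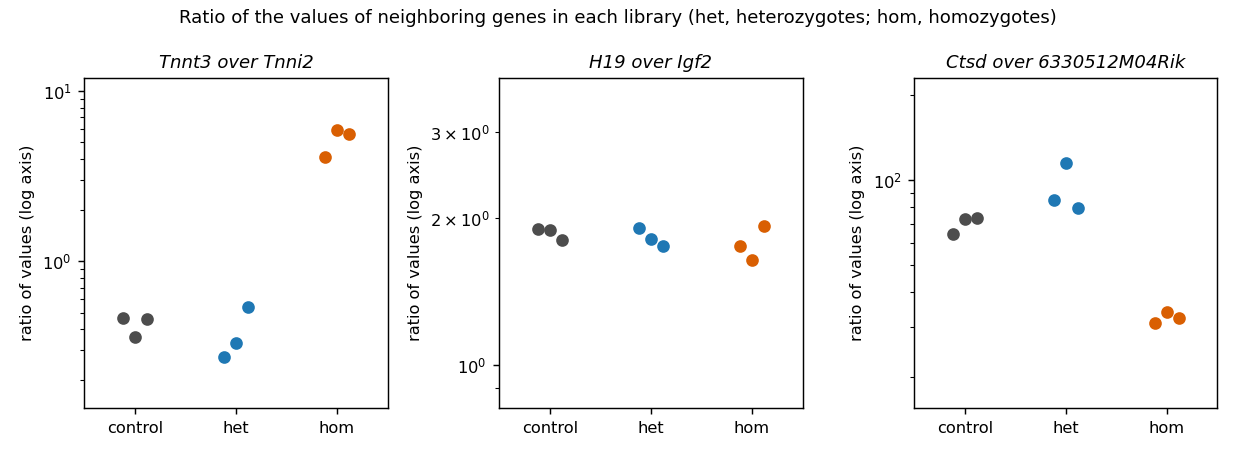
Ratio of the normalized values of neighboring genes in each library, on log axes that differ between the panels. Points are the 3 libraries of controls, heterozygotes (het) and homozygotes (hom). *Tnnt3* over *Tnni2* lies between 4.12 and 5.93 in homozygotes, above 0.276 to 0.538 in the other genotypes, *H19* over *Igf2* overlaps between all 3, and *Ctsd* over *6330512M04Rik* lies between 31.1 and 34.0 in homozygotes, below the others.

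Other genes of the insulin-like growth factor pathway were called in both directions. Of 19 listed genes 15 had a row, and 2 were higher and 6 lower in homozygotes than in controls, beside 7.19% and 8.03% of all genes. Their median log2 difference was -0.24. Among receptors, *Igf1r*, which carries the growth signal, fell by 0.36 (SE 0.08, limma adjusted p = 0.00999) and *Insr*, the insulin receptor, fell by 0.32 (SE 0.10, limma adjusted p = 0.0395) on the log2 scale. *Igf2r*, which clears the ligand, was at -0.30 and not called (limma adjusted p = 0.163). The docking protein *Irs1* fell by 0.75 (SE 0.08, limma adjusted p = 6.89e-05), and the second ligand *Igf1* fell by 0.29 (SE 0.07, limma adjusted p = 0.0161). Of the binding proteins *Igfbp2* (0.62) and *Igfbp3* (0.53) rose and *Igfbp5* (-0.36) fell. *Igf2bp1*, which binds *Igf2* mRNA, fell by 0.24 on the log2 scale. Against heterozygotes, 2 of the 15 were higher and 4 lower, beside 6.87% and 6.7% of all genes.

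The homozygotes were also set against heterozygotes, which carry the driver as well. The comparison uses the same homozygote libraries as the first, so it repeats their part. Of the same 8 genes of the stretch without *Tnni2* and *Tnnt3*, *6330512M04Rik* and *Ctsd* were called higher and none lower, beside 13.6% of all genes (6.87% higher and 6.7% lower), and 3 did not overlap between the groups, beside 30.8%. Nothing is read from these counts either.

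Between heterozygotes and controls none of the 6 members other than *Tnni2* and *Tnnt3* was called by limma, beside 0.143% of all genes. *Ctsd* and *Lsp1* had an unadjusted p under 0.05, as 7.37% of all genes did. By edgeR and DESeq2 on the recovered reads none of these 6 was called either. *Ctsd*, *Lsp1* and *Igf2* did not overlap between the groups, with heterozygotes higher, beside 14.3% of all genes. *Tnni2* and *Tnnt3* differed by log2 differences of 0.23 and 0.02. The comparison shares the controls with the first and the heterozygotes with the second.

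**Figure D4:**
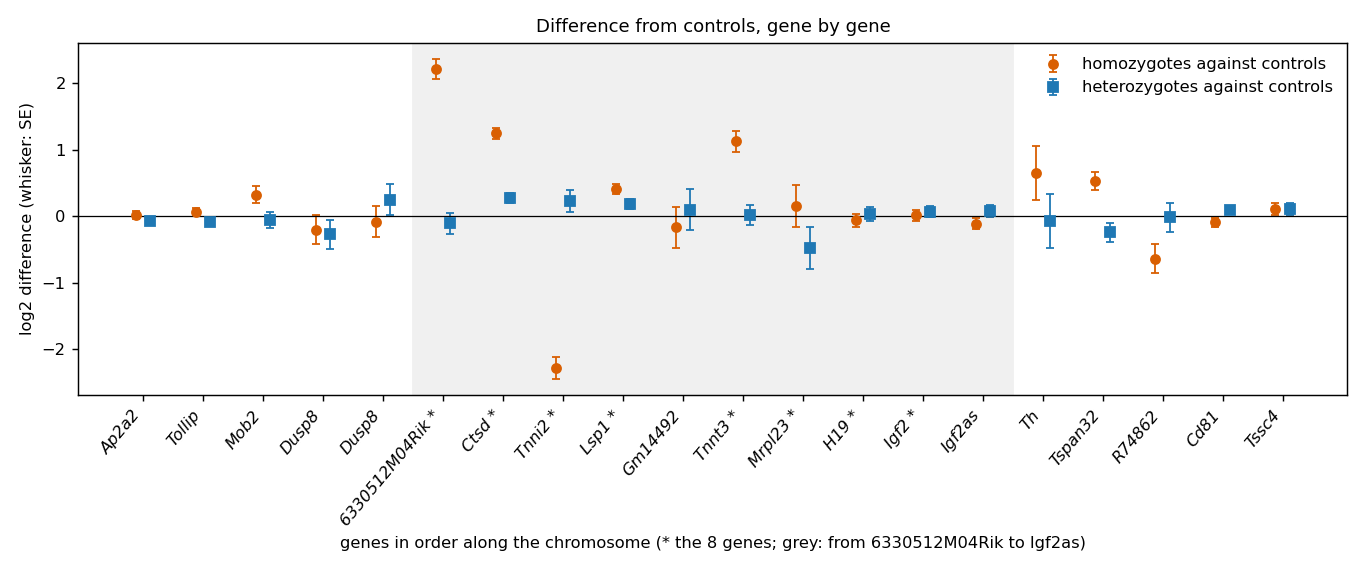
Log2 difference from controls (vertical axis, whiskers SE) of genes with a row, in order along the chromosome, for homozygotes (circles) and heterozygotes (squares). The grey band runs from *6330512M04Rik* to *Igf2as* and stars mark the 8 genes. In homozygotes the differences of over 1 or under -1 lie between *6330512M04Rik* and *Tnnt3*, and the heterozygotes stay between -0.48 and 0.27 inside the band.

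The flanking genes were compared as the 5 on each side with a row in the table. Before the locus these were *Ap2a2*, *Tollip*, *Mob2* and both entries of *Dusp8*, of which the nearer ends 230 kb before the first gene of the stretch, and after it *Th*, *Tspan32*, *R74862*, *Cd81* and *Tssc4*. Of the 10, 1 was called between homozygotes and controls, near the 15.2% of all genes, and 4 did not overlap between the groups, beside 33.2% of all genes. The called gene was *Tspan32*, a tetraspanin of blood cells, which was higher (0.53, SE 0.14, limma adjusted p = 0.0224). It was also called against heterozygotes (limma adjusted p = 0.00335), as none of the other 9 was, beside 13.6% of all genes, and 5 of the 10 did not overlap between these groups, beside 30.8%. Limma called none of the 10 between heterozygotes and controls, where 0 had an unadjusted p under 0.05, beside 7.37% of all genes. The median log2 difference of the 10 between homozygotes and controls was 0.04. *Gm14492* inside the stretch was at -0.17 (SE 0.31, limma adjusted p = 0.762).

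The order of the 8 genes by level per kb of exon spanned a wide range. In controls it ran from *H19* (4220) through *Igf2* (977), *Ctsd* (105), *Tnni2* (13.4), *Lsp1* (8.50), *Tnnt3* (6.33) and *Mrpl23* (5.62) to *6330512M04Rik* (0.790). *Tnnt3* and *Mrpl23* overlapped in controls and in heterozygotes, and no other neighbors in the order did. The top 3 places were the same in all genotypes. In homozygotes *Tnnt3* (14.3 per kb) came next, followed by *Lsp1* (11.3), *Mrpl23* (6.17) and *6330512M04Rik* (4.05), and *Tnni2* (2.53) came last, with no overlap between neighbors.

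**Figure D5:**
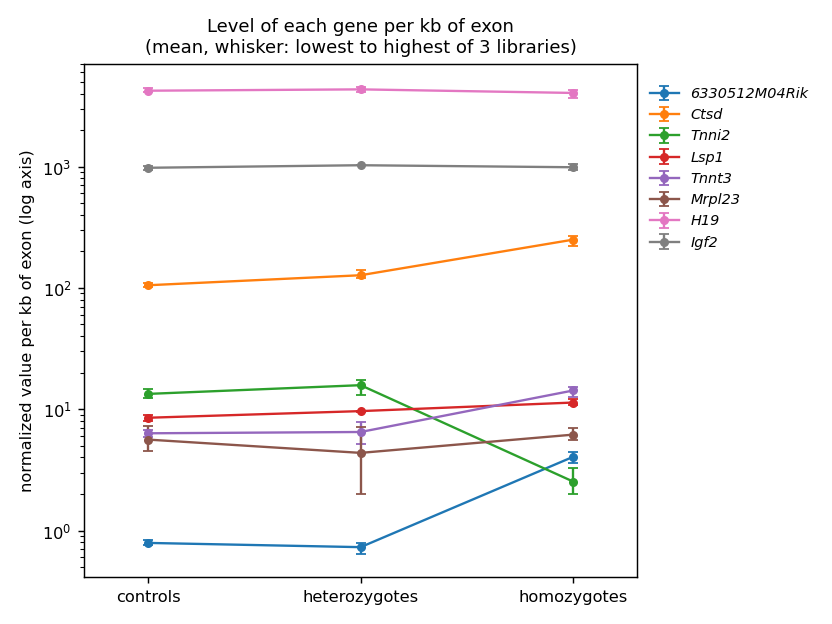
Level of each of the 8 genes as normalized value per kb of exon (log axis) in controls, heterozygotes and homozygotes. Points are means and whiskers run from the lowest to the highest of the 3 libraries. *Tnni2* goes from 13.4 in controls to the lowest place, 2.53, in homozygotes, and *H19* and *Igf2* are highest in all 3 genotypes.

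For each of the 8 genes, the 3 genes most like it were taken by Pearson's r of the log2 values over the 9 libraries, among the 10106 genes whose mean reached 10 in at least 1 genotype. The libraries share their scaling and fall into 3 genotypes, so r takes in differences between genotypes as well as between libraries, and it is given as a description. *Tnni2* was most like *Timp2* and *Gja1* (both r = 0.991), an inhibitor of metalloproteases and the gap junction protein connexin 43, and *2610029I01Rik* (0.987). *Ctsd* was most like *Fuca2* (0.989), *Acp6* (0.986) and *Slc7a7* (0.985), of which *Fuca2* encodes a fucosidase. *6330512M04Rik* was most like *Cenpv* (0.985), *Amigo2* (0.984) and *Fgf13* (0.982). Of these, *Cenpv* and *Amigo2* reached a mean of 10 only in homozygotes (13.5 and 11.9), so they passed the filter through the genotype where they are high. *Tnnt3* was most like *Ccdc136* (0.982), *Ermp1* (0.982) and *Wnt2b* (0.981), and *Lsp1* like *Mylpf* (0.983), *Mov10l1* (0.980) and *Creld2* (0.975). The genes with no call had lower values, with *Prpf3* (0.946) for *Mrpl23*, *Patz1* (0.941) for *H19* and *Galnt2* (0.945) for *Igf2* as the closest.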

How the data were processed

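Hearts of E10.5 mouse embryos were sequenced as polyA RNA (TruSeq, GAIIx) in 9 libraries, 3 per genotype, each a pool of 6 hearts. The authors deposited 1 table of normalized signal values per gene on the NCBIM37 transcriptome (Ensembl 65). The submitters' processing notes name CASAVA, cutadapt, RSEM, Bowtie2 and limma. The deposited signal values were whole reads plus 0.5 times a factor per library (100% of values within 0.01 of whole reads), with low genes already left out, since each of the 14011 genes reached 1 in 3 or more libraries. No column of the table was left unused. Columns named Het were taken as controls and DH as heterozygotes, from the study's methods and group averages, and numbers within these groups only name libraries.

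Values were analyzed as log2(value + 0.5), which understates changes of low genes, with limma 3.58.1 in R 4.3.3. One fit held 9 libraries and 3 genotypes, with a trend of variance on mean. The p-values were adjusted over 14011 genes by Benjamini-Hochberg, and the threshold of a call was 0.05 on the adjusted p. For a single gene, an exact two-sided permutation test of 3 against 3 cannot go below 0.1, so none was used. The p-values measure the spread between pools. Members and lists were chosen with earlier results of these data known. Genes named are the 8 members, annotated genes between them, 5 genes with a row on each side, the 3 genes most like each member, members of the lists (fast skeletal muscle, troponins, insulin-like growth factor pathway, cathepsins, Ifitm genes, mitochondrial ribosomal proteins, cell type markers), and *Ctcf*. Coordinates and exons of 13987 genes were found in GENCODE M1, and repeated sequence from BLAST+ 2.17.0. The reads recovered from the values were tested with edgeR 4.0.16 and DESeq2 1.42.0 as alternatives. The other alternatives were the pseudocount (0.1 and 1), filters on low values, the groups in the fit, quantile normalization, no trend, a threshold of 0.01, removal of a trend with exonic length, a replicate block and leaving out each library. The main limma fit was tried on simulated data for homozygotes against controls only, with the same spread set for all genes. The alternatives were not tried in this way. Tables were prepared with Python 3.11.15. Chromatin data of the study were not used here.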

Additional observations from a re-analysis of the deposited data

How the results depend on the processing

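Of the 6 members other than *Tnni2* and *Tnnt3*, over 21 alternatives each, 3 to 4 were called between homozygotes and controls (6.12% to 19.3% of all genes), 2 to 3 between homozygotes and heterozygotes (5.15% to 17.1%) and 0 between heterozygotes and controls (0.0636% to 0.285%). Of 360 values of these members under alternatives, 354 kept their side of the threshold and no called value changed sign. Of the uncalled ones, *Igf2* against controls (0.01) ran from -0.17 to 0.07 and *H19* (-0.06) from -0.39 to 0.0032, on both sides of 0. The 6 that passed it were *H19* under quantile normalization (-0.39 against both groups, adjusted p = 0.0176 and 0.0190 by limma), *Lsp1* against heterozygotes with values of at least 1 in all libraries (limma adjusted p = 0.0470), with a mean of at least 5 (0.0436) and with the length trend removed (0.27, 0.0237), and *Mrpl23* against heterozygotes without heterozygote replicate 2 (1.04, limma adjusted p = 0.0257). The filters test fewer genes, and the cause of the others was not tested. The median log2 difference of all genes between homozygotes and controls was 0.0029 under quantile normalization and 0.0096 under the length correction. In the main fit it was -0.0011.

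Column numbers were not found to pair libraries. Same-numbered libraries of different groups had correlations of their deviations between -0.108 and 0.0987 over 9 pairs. Differently numbered libraries had correlations between -0.131 and 0.180. A pairing under other numbers was not tested. With a replicate block by the column numbers, 3, 2 and 0 of the 6 members were called, beside 12.5%, 11.1% and 0.107% of all genes. The block cannot move a log2 difference, since each number holds a library of each group. Depth limits the low genes: a single read was worth 0.231 in the shallowest library, and *6330512M04Rik* had 16 to 36 reads in each control and heterozygote.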
